A study of Mus musculus with 4 samples.

Results

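Mast cells are tissue-resident immune cells that store histamine, serotonin and proteases in granules. They release these when antigen cross-links IgE held by the high-affinity IgE receptor, FcεRI, or when basic peptides and drugs bind receptors of the Mrgpr family. Their survival depends on the receptor tyrosine kinase KIT, and the transcription factor GATA2 is needed for their development. In fat they lie mainly along vessels and in the stroma, and they are known to become more numerous in obese visceral fat.

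Here 8 genes for mast cell receptors and amine synthesis were followed in epididymal fat. They encode the IgE receptor subunits Fcer1a and Ms4a2, the Mrgpr family receptors Mrgprb1 and Mrgprb2 and the amine-forming enzymes Hdc and Tph1. The 8 also include the stem cell factor receptor Kit and the transcription factor Gata2. They were picked by symbol from 24421 genes because Fcer1a, Mrgprb1 and Tph1 were known to be much lower in one group, so their values in this contrast are a description and carry no test. The animals of both groups were wild-type (WT) male C57BL/6J mice. In the weight-cycling group (WC1), high-fat diet (HFD) began at 8 weeks of age and ran for 8 weeks, standard diet for 2 weeks then brought weight loss, and HFD was given again for 6 weeks. The high-fat control group (Ctrl) stayed on HFD without a break for 14 weeks, beginning at 10 weeks of age. Poly(A) RNA was sequenced in 2 libraries per group, and the labels do not say whether each library came from a separate mouse, so p values measure the spread between libraries only.

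The libraries held 71658062 and 90965297 gene reads in Ctrl and 61655738 and 61465029 in WC1, and 3 reads corresponded to between 0.0345 and 0.0492 CPM, the limit that a count of 0 allows. All 8 genes had at least 297 reads in each Ctrl library and at least 25 in each WC1 library, and all passed the filter of 0.5 CPM in 2 libraries, Tph1 through its Ctrl libraries alone. The granule proteases that define connective tissue mast cells, Cpa3, Cma1, Mcpt4 and Tpsb2, were present at between 105 and 181 CPM in Ctrl. In bulk tissue, fewer mast cells and less RNA per mast cell cannot be told apart.

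Of the 8 genes, 6 stood at or below 25% of their Ctrl mean in WC1 (Fcer1a, Ms4a2, Mrgprb1, Mrgprb2, Tph1 and Hdc), between 4.80-fold and 19.9-fold lower in mean CPM. Over all 14106 genes tested, 0.652% were that low. Kit and Gata2 differed far less, at 75.8% and 112% of Ctrl. In 7 of the 8 genes both WC1 libraries lay below both Ctrl libraries in CPM, which held for 36.6% of all tested genes, and in 6 of 8 in TPM (21.7% of all tested genes). In 0 of 8 both WC1 libraries lay above both Ctrl libraries in CPM (32.7% of all tested genes). Because this contrast was used to choose the genes, nothing is read from these shares. The plot of CPM by library shows the 6 genes apart from Kit and Gata2.

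**Figure D1:**
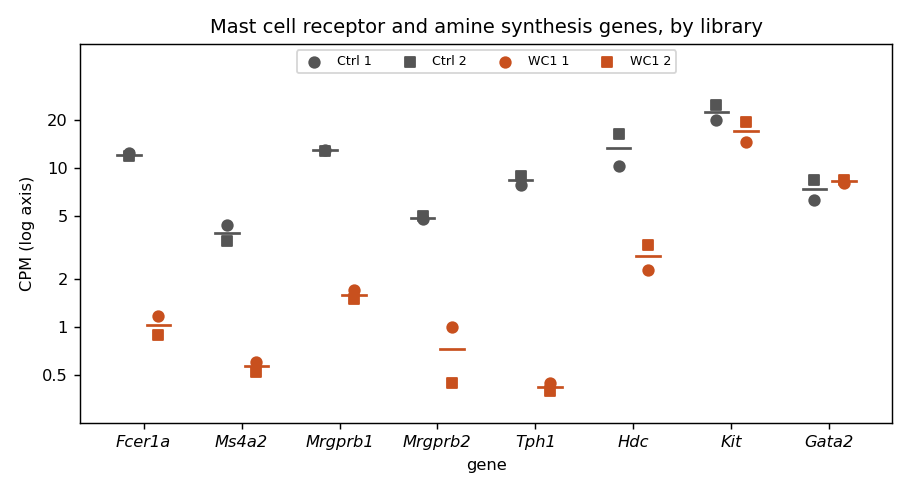
CPM (log axis) of the 8 genes in each library. Circles and squares are libraries 1 and 2, grey is Ctrl, orange is WC1 and short lines are group means; the groups are far apart for the first 6 genes, from Fcer1a to Hdc, close for Kit, and overlapping for Gata2.

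The upstream sequence of a few of these genes is shown because windows at the starts of the 6 genes that differed most share a short motif, and that of Gata2 is shown as one without it. GATA2 binds the core letters GATA, and the letters AGATAA and AGATAG as well as TGATAA and TGATAG were searched on both strands in the 250 bases before 1 RefSeq start per gene, taken from the RefSeq promoter table for GRCm38.p6, which matched 8 of 8 genes. Kit, Tph1 and Gata2 have 2 starts in it, and the one nearest to the GENCODE gene start was used. The RefSeq start of Hdc lies 621 bases inside the GENCODE gene, so that its window is within the gene as annotated there, and the start of Kit lies 71 bases inside. At least 1 match was found in 6 of 8 genes, namely Fcer1a, Ms4a2, Mrgprb1, Mrgprb2, Tph1 and Hdc, and none in Kit or Gata2. Of all 32851 promoters in the table, 26.5% held a match, and of the 13540 promoters of tested genes 17.4% did. Base composition differed too: the 6 promoters with a match had a GC content of 37.2% to 48.8%, a range in which 39.7% of all promoters held a match, whereas those of Kit and Gata2 had 70.8% and 67.2%, a range in which 5.41% did. A match is a description of letters, not evidence of binding. The sequences below run 5′ to 3′ up to the base before the start, with the GATA matches in capitals on whichever strand they lie.
Fcer1a promoter, chr1:173227230-173227479, minus strand: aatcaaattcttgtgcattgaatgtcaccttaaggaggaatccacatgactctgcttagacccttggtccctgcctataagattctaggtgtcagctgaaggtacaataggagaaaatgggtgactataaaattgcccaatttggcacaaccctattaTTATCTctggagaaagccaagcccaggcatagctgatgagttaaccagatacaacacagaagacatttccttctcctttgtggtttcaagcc
Ms4a2 promoter, chr19:11623720-11623969, minus strand: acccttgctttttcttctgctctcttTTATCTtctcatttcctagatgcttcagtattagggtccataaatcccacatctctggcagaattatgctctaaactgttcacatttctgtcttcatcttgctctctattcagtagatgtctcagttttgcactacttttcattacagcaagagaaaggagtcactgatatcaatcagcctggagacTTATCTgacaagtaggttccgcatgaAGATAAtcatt
Mrgprb1 promoter, chr7:48456343-48456592, minus strand: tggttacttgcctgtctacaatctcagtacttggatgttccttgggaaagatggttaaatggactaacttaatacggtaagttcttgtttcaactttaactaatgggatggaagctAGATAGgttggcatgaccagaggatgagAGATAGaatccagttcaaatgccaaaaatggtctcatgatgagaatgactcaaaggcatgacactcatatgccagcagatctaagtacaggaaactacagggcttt
Tph1 promoter, chr7:46672538-46672787, minus strand: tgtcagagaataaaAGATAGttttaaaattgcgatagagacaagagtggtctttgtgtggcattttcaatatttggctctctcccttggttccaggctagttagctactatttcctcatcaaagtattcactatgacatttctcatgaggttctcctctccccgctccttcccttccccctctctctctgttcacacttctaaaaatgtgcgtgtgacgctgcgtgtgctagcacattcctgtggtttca
Gata2 promoter, chr6:88193641-88193890, plus strand: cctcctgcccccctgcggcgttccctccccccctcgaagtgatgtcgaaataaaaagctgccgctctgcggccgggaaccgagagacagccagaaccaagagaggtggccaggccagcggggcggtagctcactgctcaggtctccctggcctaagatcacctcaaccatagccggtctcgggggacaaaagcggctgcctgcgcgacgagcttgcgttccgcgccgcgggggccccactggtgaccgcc
In Fcer1a the match began 92 bases before the start. In Ms4a2 there were 3 matches, at 224, 37 and 11 bases, and in Mrgprb1 there were 2, at 134 and 106 bases. The matches of Mrgprb2, Tph1 and Hdc began 48, 236 and 221 bases before their RefSeq starts, the last of them inside the GENCODE span of Hdc. At the second RefSeq starts of Kit, Tph1 and Gata2, which lie 4, 5160 and 4773 bases from those used, 0 GATA matches were found, so the match of Tph1 depends on the start. The E-boxes CACGTG and CATGTG, letters that the mast cell factor MITF can bind, were found on either strand in 17.6% of all promoters and, among the 8 genes, in Fcer1a alone, 208 bases before its start.

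The receptors were examined first, beginning with FcεRI. Fcer1a (chr1:173221284-173227214, minus strand, mm10) encodes the α chain, which binds IgE. It had 843 and 1034 reads in Ctrl and 72 and 56 in WC1, that is 12.3 and 11.9 CPM against 1.18 and 0.89 CPM. The replicates lay close together and the groups were far apart, with means of 12.1 ± 0.31 and 1.03 ± 0.21 CPM (SD, n = 2 per group). The mean was 11.7-fold lower in WC1, and the log2 fold change of log2(CPM + 1) was -2.69 ± 0.13 (SE). Ms4a2 (chr19:11615523-11623719, minus strand) encodes the β chain, which amplifies the signal of the receptor. Its Ctrl libraries gave 4.34 and 3.48 CPM and its WC1 libraries 0.61 and 0.52 CPM. The mean CPM was 6.92-fold lower in WC1 (log2 fold change -1.64 ± 0.14 SE). Of the 50-base stretches in its longest transcript, 2.69% also occurred in Ms4a4b, a member of the same family, so a small part of its reads is uncertain. Both subunits were thus low in both WC1 libraries.

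The Mrgpr receptors were lower as well. Mrgprb1 and Mrgprb2 lie on chromosome 7, 94.6 kb apart, and Mrgprb2 is the mouse receptor through which basic secretagogues degranulate mast cells without IgE. Mrgprb1 (chr7:48444113-48456342, minus strand) gave 13.0 and 12.8 CPM in the Ctrl libraries, against 1.70 and 1.49 CPM in the WC1 libraries. Its mean CPM was 8.04-fold lower (log2 fold change -2.42 ± 0.11 SE). Mrgprb2 (chr7:48550965-48558086, minus strand) gave 4.75 and 4.98 CPM in the Ctrl libraries, against 1.0 and 0.44 CPM in the WC1 libraries. It was 6.73-fold lower in mean CPM (log2 fold change -1.79 ± 0.19 SE). Its WC1 libraries, with 61 and 28 reads, differed in proportion more from each other than those of the other 7 genes. The paralogs could in principle share reads. No 50-base stretch of the longest annotated transcript of Mrgprb1 or Mrgprb2 occurred in a transcript of another gene. Only exact matches were searched, so sharing of reads aligned with mismatches was not tested.

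The family was then examined beyond these genes. Of 19 other Mrgpr symbols, 10 were at 0 in every library, Mrgprb3, Mrgprb4, Mrgprb5 and Mrgprb8 among them, and 3 were tested, of which 1 was called (7.71% of all tested genes were called lower). Mrgprx2, which lies between Mrgprb1 and Mrgprb2 (chr7:48478619-48499321), fell from 4.56 ± 0.17 to 0.70 ± 0.004 CPM, a 6.49-fold difference (log2 fold change -1.71 ± 0.12 SE, limma adjusted p = 0.0082). It shared no 50-base stretch with other transcripts either. Mrgprf stood at 8.59 and 9.24 CPM in Ctrl and WC1 (limma adjusted p = 0.66), and Mrgpre at 11.8 and 7.73 CPM (limma adjusted p = 0.10). Mrgprg, Mrgpra4, Mrgpra6, Mrgprh and Mrgprx1 had reads but lay under the filter. The call of Mrgprx2 was lost without Ctrl 1 and without Ctrl 2 (limma adjusted p = 0.11 and 0.089).

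Next, the enzymes that make the stored amines were compared. Tph1 (chr7:46644641-46672537, minus strand) encodes tryptophan hydroxylase of peripheral tissues, the rate-limiting enzyme of serotonin synthesis. It had 532 and 778 reads in Ctrl and 27 and 25 in WC1, corresponding to 7.78 and 8.94 CPM against 0.44 and 0.40 CPM. Tph1 was the lowest of the 8 genes relative to Ctrl, at 5.02% of the Ctrl mean or 19.9-fold lower, with a log2 fold change of -2.72 ± 0.13 (SE). Hdc (chr2:126593667-126619299, minus strand) encodes histidine decarboxylase, which forms histamine. The Ctrl libraries gave 10.3 and 16.3 CPM and the WC1 libraries 2.29 and 3.26 CPM. Its Ctrl libraries differed from each other more than those of Tph1, and the WC1 mean was 4.80-fold lower (log2 fold change -1.90 ± 0.25 SE).

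Kit and Gata2 behaved differently. Kit (chr5:75574916-75656722, plus strand) encodes the receptor for stem cell factor and is also active in blood progenitors, melanocytes and interstitial cells. The Ctrl libraries gave 20.1 and 24.9 CPM and the WC1 libraries 14.6 and 19.5 CPM. The highest WC1 library lay 2.74% below the lowest Ctrl library. In TPM, which corrects for transcript length and rescales each library, the groups overlapped, at 7.42 and 9.29 against 5.87 and 8.12 TPM. The median log2 fold change of all tested genes lay 0.12 higher in TPM than in CPM. For Kit the log2 fold change was -0.39 ± 0.18 (SE) in CPM and -0.23 in TPM. Gata2 (chr6:88193891-88207032, plus strand), which is also active in endothelial cells and fat cell precursors, gave 6.26 and 8.40 CPM in the Ctrl libraries, against 7.98 and 8.44 CPM in the WC1 libraries (log2 fold change 0.16 ± 0.15 SE). Its groups overlapped in CPM. In TPM, with the same upward shift of the median of all genes, both WC1 libraries (5.13 and 5.59) lay above both Ctrl libraries (3.69 and 5.0).

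The order of the levels per transcript length was therefore different in the groups. In Ctrl, Fcer1a was highest at 22.6 ± 0.43 TPM (SD, n = 2), followed by Hdc (10.7), Kit (8.35), Mrgprb1 (5.90), Mrgprb2 (4.49), Gata2 (4.34), Tph1 (3.78) and Ms4a2 (2.85). Hdc and Kit overlapped between libraries, as did Mrgprb2 and Gata2 and also Gata2 and Tph1, so their order is not resolved. In WC1, Kit was highest at 6.99 ± 1.60 TPM and Gata2 next at 5.36 ± 0.33 TPM, followed by Hdc (2.45), Fcer1a (2.12), Mrgprb1 (0.81), Mrgprb2 (0.72), Ms4a2 (0.43) and Tph1 (0.19). Here Hdc overlapped Fcer1a, and Mrgprb2 overlapped both Mrgprb1 and Ms4a2. The summed level of the 8 genes was 59.2 and 66.9 TPM in Ctrl and 17.9 and 20.3 TPM in WC1. Fcer1a made up 38.8% and 33.4% of it in Ctrl and 13.4% and 9.12% in WC1, whereas Kit made up 12.5% and 13.9% in Ctrl and 32.9% and 40.1% in WC1.

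**Figure D2:**
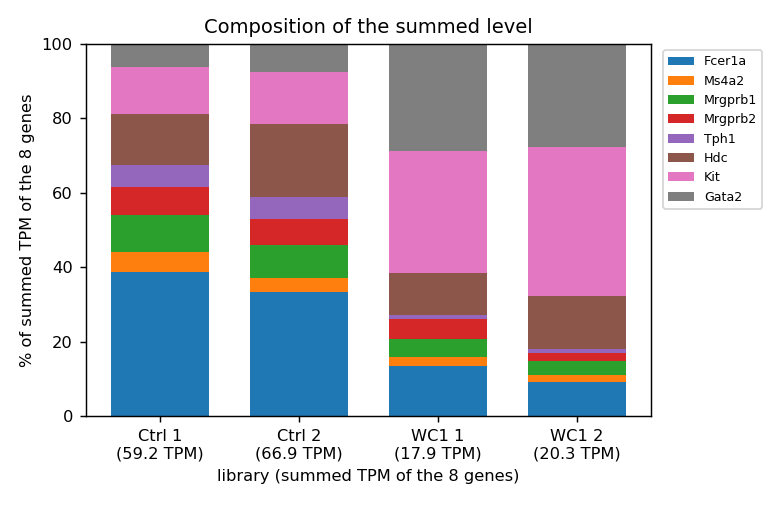
Share of each gene in the summed TPM of the 8 genes (%), 1 bar per library, with the summed TPM under each bar. Fcer1a takes the largest share in both Ctrl bars (38.8% and 33.4%) and Kit in both WC1 bars (32.9% and 40.1%).

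The receptor and enzyme genes were then set beside the granule proteases of mast cells. Which cells of the tissue each RNA came from was not tested. Among 11 granule genes, 8 were tested and 7 fell (7.71% of all tested genes were called lower). The list median was -2.60 on the log2 scale against -0.02 for all tested genes, and the values of the 8 ranged from -3.28 to -0.38. Of the 8 tested, Tpsg1, which was called, and Ctsg, which was not, passed the filter through their Ctrl libraries alone. Cpa3, the mast cell carboxypeptidase, fell from 108 ± 3.5 to 10.6 ± 3.5 CPM, or 10.2-fold. Cma1 (9.76-fold), Mcpt4 (9.22-fold) and Tpsb2 (10.1-fold), which encode chymases and a tryptase, fell likewise (limma adjusted p between 0.0044 and 0.0086 for these 4 genes). These calls were lost without Ctrl 1 or Ctrl 2, where no granule gene passed in limma (adjusted p of the 7 genes between 0.065 and 0.23 and between 0.062 and 0.25) although 8 and 5 had an unadjusted p under 0.05. Without WC1 2, the call of the tryptase Tpsg1 was lost. Within a library, the TPM of Fcer1a relative to that of Cpa3 was 0.166 and 0.153 in Ctrl and 0.128 and 0.154 in WC1, so the ratios overlapped. Of the 6 genes that differed most, Tph1 alone had a lower ratio to Cpa3 in both WC1 libraries (0.0104 and 0.0152) than in Ctrl (0.0253 and 0.0278). The ratio was higher in both WC1 libraries for Hdc (0.106 and 0.243 against 0.0594 and 0.0900), Mrgprb1 (0.0451 and 0.0640 against 0.0428 and 0.0403), Mrgprb2 (0.0528 and 0.0374 against 0.0316 and 0.0316) and Ms4a2 (0.0241 and 0.0333 against 0.0226 and 0.0176). The ratio of Kit to Cpa3 was 0.0537 and 0.0636 in Ctrl and 0.313 and 0.678 in WC1. These ratios are given as values, without a test.

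**Figure D3:**
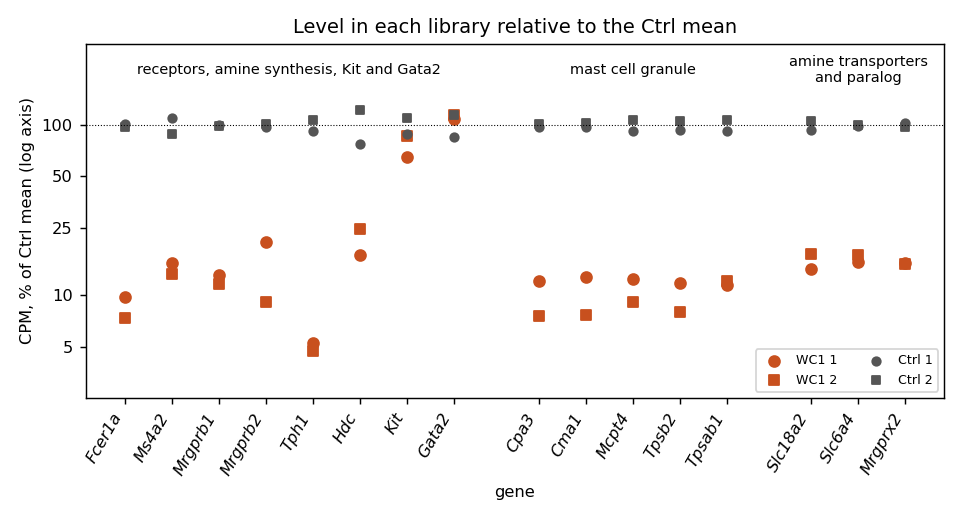
CPM of each library as a percentage of the gene's Ctrl mean (log axis). Circles and squares are libraries 1 and 2, grey is Ctrl and orange is WC1; the WC1 points of the granule genes lie near those of Fcer1a and Mrgprb1, those of Tph1 lie lowest at 5.29% and 4.75%, and those of Kit (64.7% and 86.9%) and Gata2 (109% and 115%) lie near the Ctrl points.

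Among the other genes of amine handling, the vesicular and the serotonin transporter fell, and other genes rose. Of 16 genes, 13 were tested, 2 fell and 3 rose (17.9% of all tested genes were called, 10.2% as higher), and the list median was -0.03. Slc18a2, the vesicular monoamine transporter that loads histamine and serotonin into granules, gave 4.61 and 5.18 CPM in the Ctrl libraries, against 0.70 and 0.86 CPM in the WC1 libraries. It fell 6.26-fold (log2 fold change -1.73 ± 0.13 SE, limma adjusted p = 0.0088). Slc6a4, the serotonin uptake transporter, gave 4.04 and 4.10 CPM in the Ctrl libraries, against 0.64 and 0.70 CPM in the WC1 libraries, and fell 6.08-fold (-1.60 ± 0.12 SE, limma adjusted p = 0.0088). In contrast, Slc22a3, a low-affinity amine uptake transporter, rose 2.12-fold and Maob, a monoamine oxidase, rose 1.85-fold (limma adjusted p = 0.014 and 0.034). Tph2, the tryptophan hydroxylase known from brain neurons, rose from 45.6 ± 2.5 to 111 ± 14 CPM (log2 fold change 1.26 ± 0.11 SE, limma adjusted p = 0.011), opposite in direction to the values of Tph1. Ddc, which completes serotonin synthesis, lay under the filter at 0.07 to 0.31 CPM. Gch1, which makes the cofactor of the hydroxylases, stood at 16.3 and 9.82 CPM (limma adjusted p = 0.064), Maoa at 115 and 105 CPM (0.36) and the histamine-degrading Hnmt at 23.6 and 22.3 CPM (0.58). Without Ctrl 1 or Ctrl 2 no gene of this list was called in limma, although 6 and 6 had an unadjusted p under 0.05, and the adjusted p values of the 5 genes lay between 0.11 and 0.22 and between 0.094 and 0.13. Without WC1 1, 9 genes of the list were called, and without a filter the call of Maob was lost (limma adjusted p = 0.062).

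The receptors through which these amines act were sparse. Of 13 histamine and serotonin receptor genes, 4 were at 0 in every library, 5 were tested and 0 were called in limma, 0 in edgeR and 0 in DESeq2, with 1 at an unadjusted p under 0.05 in limma. Without WC1 1, 1 of the 5 was called. The serotonin receptor Htr2b gave 18.6 and 19.2 CPM in the Ctrl libraries, against 17.2 and 7.85 CPM in the WC1 libraries, of which WC1 2 was the lower (limma adjusted p = 0.23). Hrh1 was at 4.27 ± 0.17 and 3.29 ± 0.19 CPM, Hrh2 at 0.68 and 0.94 CPM and Htr2a at 0.60 and 0.34 CPM in Ctrl and WC1 (limma adjusted p between 0.13 and 0.39 for these 3 genes).

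The signalling genes downstream of FcεRI are shared with macrophages and other leukocytes. Of 16 such genes, 6 fell and 1 rose (7.71% and 10.2% of all tested genes), and the list median was -0.41. Fcer1g, the γ chain that FcεRI shares with other Fc receptors, fell 1.91-fold, from 417 ± 37 to 218 ± 48 CPM (log2 fold change -0.95 ± 0.17 SE, limma adjusted p = 0.028). Lyn, the kinase that starts the signal, fell by 0.37 on the log2 scale, and the inhibitory phosphatases Inpp5d and Ptpn6 fell by 0.65 and 0.49 (limma adjusted p between 0.027 and 0.045 for these 3 genes). Plcg1, a phospholipase, rose by 0.62 (limma adjusted p = 0.024). The kinase Syk (384 and 351 CPM) and the adaptor Lat2 (212 and 159 CPM) were not called. Each of the 7 calls was lost without Ctrl 1 (limma adjusted p between 0.17 and 0.25) and without Ctrl 2 (0.13 to 0.23), whereas 13 genes were called without WC1 1. In the TPM matrix the calls of Lyn and Ptpn6 were lost (limma adjusted p = 0.084 and 0.075), and that of Ptpn6 also in edgeR (adjusted p = 0.051). Without a filter the calls of Fcer1g, Lyn, Inpp5d and Ptpn6 were lost (limma adjusted p between 0.050 and 0.073). Lcp2 and Pik3cd, which also fell (limma adjusted p = 0.028 and 0.036), were not followed gene by gene in these settings. Thus the α and β chains were lower by 11.7-fold and 6.92-fold, and the shared γ chain by 1.91-fold.

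Of 12 genes of the KIT ligand and of cytokines acting on mast cells, 3 fell in limma (7.71% of all tested genes), 3 were called in edgeR and 4 in DESeq2, and the list median was -0.23. The alarmin Il33 fell from 26.3 ± 1.6 to 11.1 ± 0.12 CPM (limma adjusted p = 0.0088), and its receptor Il1rl1, carried by mast cells among others, fell from 32.1 ± 2.3 to 17.1 ± 2.1 CPM (limma adjusted p = 0.018). Il4ra, the interleukin-4 receptor chain, fell by 0.71 in log2 units (limma adjusted p = 0.016). Kitl, which encodes stem cell factor, gave 79.4 and 82.1 CPM in the Ctrl libraries, against 88.0 and 85.1 CPM in the WC1 libraries (limma adjusted p = 0.32), and Csf2rb at 152 and 141 CPM (0.41). Without Ctrl 1 and without Ctrl 2 the 3 calls were lost, with limma adjusted p values of 0.11 to 0.14 and 0.089 to 0.12, and without WC1 1 there were 7 calls.

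Of 14 transcription factor genes of mast cells and related lineages, 13 were tested and 0 were called in limma, 0 in edgeR and 5 in DESeq2, with 6 at an unadjusted p under 0.05 in limma. Without WC1 1 limma called 7 of them and without WC1 2 it called 1. Mitf, the melanocyte and mast cell factor, stood at 69.5 and 46.9 CPM (limma adjusted p = 0.085) and Spi1, which encodes PU.1, at 224 and 149 CPM (0.080) in Ctrl and WC1. Gata1 lay under the filter, with 26 and 29 reads in Ctrl and 0 and 0 in WC1. Against 3 reads per WC1 library as the limit of detection it was at least 7.37-fold lower. Of 16 other surface proteins of mast cells, 5 fell and 1 rose (7.71% and 10.2% of all tested genes), with a list median of -0.64. Cd200r3, an activating receptor of mast cells and basophils, fell from 1.51 ± 0.056 to 0.53 ± 0.091 CPM. Lilrb4a, an inhibitory receptor also abundant on macrophages, fell 3.37-fold and the granule membrane protein Cd63 fell 1.83-fold, while the prostaglandin receptor Ptger3 rose 1.92-fold (limma adjusted p between 0.0092 and 0.039 for these 4 genes). Without Ctrl 1 or Ctrl 2 no gene of either list was called in limma, and of the surface proteins 6 and 8 had an unadjusted p under 0.05. Without WC1 1, 11 of the surface proteins were called, and the call of Cd63 was lost in the TPM matrix and without a filter (limma adjusted p = 0.054 and 0.070).

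**Figure D4:**
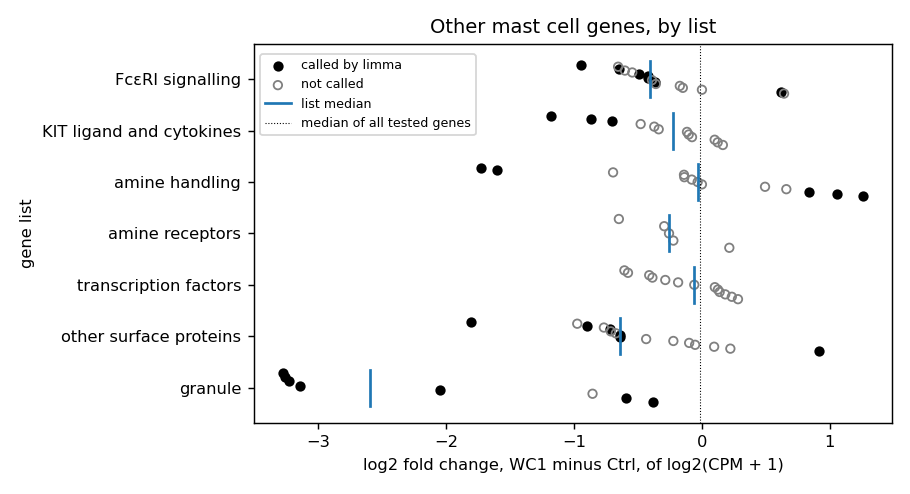
Log2 fold change of log2(CPM + 1), WC1 minus Ctrl, for each tested gene of 7 lists. Filled points passed limma at an adjusted p under 0.05, blue lines are list medians and the dotted line is the median of all tested genes (-0.02); the granule list lies lowest, with a median of -2.60, and the amine handling list has called genes on both sides.

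Markers of other cell types moved between the groups too, and their part in the values above was not tested. Over all tested genes, 7.71% were called lower and 10.2% higher, and 36.6% lay below both Ctrl libraries in both WC1 libraries. All 8 macrophage markers lay lower in both WC1 libraries, 4 of them called, and their summed level was 12110 and 11056 CPM in Ctrl and 7151 and 5084 CPM in WC1. All 8 endothelial markers rose, with summed levels of 436 and 498 CPM in Ctrl and 972 and 1256 CPM in WC1. Endothelial cells are known to transcribe Gata2 as well, and Kdr, one of these markers, lies next to Kit on the chromosome. Of 7 adipocyte markers 5 rose, with sums of 9629 and 10765 against 17360 and 22277 CPM. Of 7 fibroblast and progenitor markers 2 fell, with sums of 1762 and 1829 against 1764 and 1784 CPM. The 5 B cell markers summed to 4.47 and 2.59 CPM in Ctrl and to 7.47 and 26.9 CPM in WC1, highest in WC1 2, and 1 of the 4 tested (Cd79b) rose. The mesothelial markers summed to 122 and 90.5 CPM in Ctrl and to 60.7 and 163 CPM in WC1, on either side of Ctrl, and 0 of 6 were called (0 at an unadjusted p under 0.05 in limma, 0 calls in edgeR and 0 in DESeq2), although 3 were called without WC1 1 and 3 without WC1 2. Of the 7 T and NK cell markers 0 were called in limma, edgeR or DESeq2 (2 at an unadjusted p under 0.05 in limma), with sums of 9.46 to 12.7 CPM in Ctrl and 9.93 to 16.5 CPM in WC1. Without Ctrl 1 or Ctrl 2 no macrophage, endothelial, adipocyte or fibroblast marker was called in limma, nor Cd79b, although all 8 endothelial markers kept an unadjusted p under 0.05. Of 6 epididymis genes 0 could be tested, with 4 at 0 in every library and Adam7 at 3.02 CPM in WC1 1 and at most 0.03 CPM elsewhere. Of 3 erythroid genes tested 0 were called in limma, 0 in edgeR and 1 in DESeq2 (1 at an unadjusted p under 0.05 in limma), and 1 was called without Ctrl 2 and 1 without WC1 1. The 5 erythroid genes summed to 27.0 and 150 CPM in Ctrl and to 215 and 209 CPM in WC1. The near-identical globin genes Hbb-bs and Hbb-bt varied within groups and are uncertain, because counting can split their reads.

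Cells that share receptors or amines with mast cells were examined by their defining genes. The basophil protease Mcpt8 was at 0 to 0.09 CPM, while Prss34, which mast cells can also express, fell from 2.11 to 0.49 CPM (limma adjusted p = 0.020). Of the other basophil markers, Il6ra was not called (43.8 and 45.5 CPM) and Itga2 lay under the filter. The eosinophil genes Epx and Ear6 were at 0 in every library, Ccr3 fell from 7.69 to 2.45 CPM and Ear1 fell 2.33-fold, and Ear2 rose from 4.35 to 9.36 CPM (limma adjusted p between 0.024 and 0.040). Platelets take up serotonin, and their defining genes Gp6 and Gp9 were at 0 and at up to 0.08 CPM, whereas Pf4 (88.6 to 47.7 CPM) and Itga2b (6.06 to 2.42 CPM), which are not particular to platelets, fell (limma adjusted p = 0.016 and 0.014). The other platelet genes tested, Ppbp (0.94 and 0.51 CPM) and Gp1bb (2.11 and 3.59 CPM), were not called (limma adjusted p = 0.145 and 0.334). The melanocyte genes Tyr and Tyrp1 were at 0 in every library, and Dct, at 0.25 and 0.93 CPM, rose (limma adjusted p = 0.045). Dct passed the filter through WC1 alone. Mlana, which passed it through Ctrl alone, was at 0.73 and 0.25 CPM and was not called (limma adjusted p = 0.10), and Pmel lay under the filter. Without Ctrl 1 or Ctrl 2 none of these calls remained in limma, with adjusted p values of 0.13 to 0.26 and 0.10 to 0.22, and without WC1 2 the calls of Dct and Ear1 were lost.

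**Figure D5:**
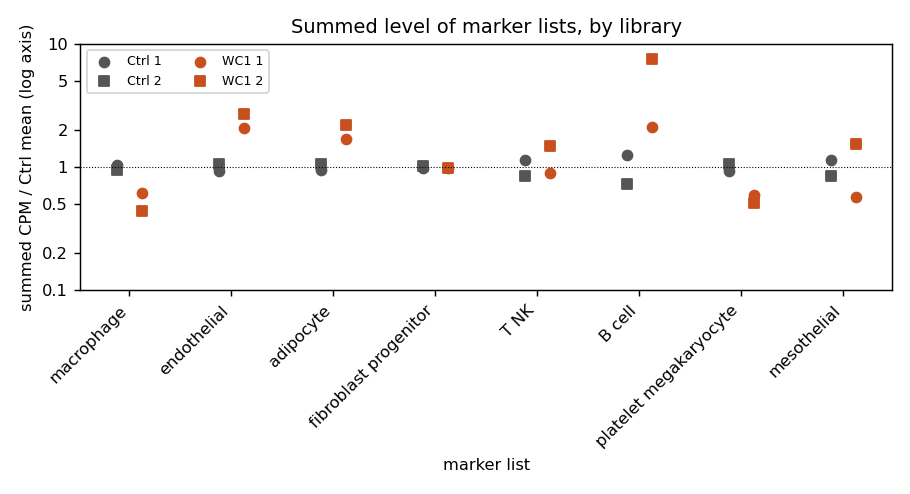
Summed CPM of the markers of each cell type in each library, divided by the Ctrl mean (log axis). Circles and squares are libraries 1 and 2, grey is Ctrl and orange is WC1; the macrophage sums are lower and the endothelial and adipocyte sums higher in both WC1 libraries, and the B cell sum is highest in WC1 2.

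The genes next to the 8 genes on their chromosomes were looked at, taking on each side the nearest protein-coding gene with a mean of at least 1 CPM. These were 15 genes, of which 4 were called and 11 were not (17.9% of all tested genes were called). Around Tph1, Sergef (4.83 kb away) and Saal1 (13.6 kb away) had log2 fold changes of -0.23 and -0.10, and around Hdc, Gabpb1 (8.14 kb away) had one of 0.06, none of them called (limma adjusted p between 0.39 and 0.63). Beside Ms4a2, Ms4a6d of the same family, 10.7 kb away, fell by 1.64 in log2 units (limma adjusted p = 0.019). Kit lies between Pdgfra, which fell by 0.59, and Kdr, which rose by 1.43 (limma adjusted p = 0.024 and 0.010). The remaining call was that of Mrgprx2. No annotated exon of another gene overlapped any of the 8 genes. Gm29261 on the opposite strand overlapped an exon of Slc18a2, and the strand setting of the counting is not stated. Without Ctrl 1 or Ctrl 2, the calls of Pdgfra, Kdr, Ms4a6d and Mrgprx2 were lost in limma (adjusted p between 0.11 and 0.19 and between 0.089 and 0.13).

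Finally, the genes whose profiles over the 4 libraries were most like those of Fcer1a and Kit were listed, by the root mean square difference of log2(CPM + 1) centred on each gene's mean, a measure that also follows the expression level. The 8 genes themselves and predicted genes were left out of this ranking. For Fcer1a they were Uchl1 (0.092), Prdx1 (0.13), Ptgr1 (0.15), Panx1 (0.16) and Slc7a11 (0.18). Of these, Prdx1, which encodes a peroxiredoxin, gave 4519 and 3696 CPM in the Ctrl libraries, against 797 and 626 CPM in the WC1 libraries. Slc7a11, a cystine transporter, gave 9.58 and 9.27 CPM, against 0.90 and 1.03 CPM. All 5 were shared with no filter and with a mean of at least 1 CPM, 4 without Ctrl 2, 3 without Ctrl 1, 2 without WC1 1, 1 without WC1 2, 0 with a pseudocount of 0.25 and 0 in the TPM matrix. For Kit they were Cd209f (0.030), Mefv (0.031), Gnmt (0.041), Ezr (0.064) and Muc13 (0.064), of which 4 were shared in the TPM matrix, 4 with a mean of at least 1 CPM, 3 with no filter, 1 with a pseudocount of 0.25, 1 without Ctrl 1 and 0 without Ctrl 2, WC1 1 or WC1 2. Both lists thus depended on the setting. With 4 libraries in 2 groups, many genes that differ by a like amount have a like profile.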

How the data were processed

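Epididymal fat RNA was analysed in 4 libraries, 2 Ctrl and 2 WC1, grouped by their titles. Per the file headers and values, the authors deposited a CPM matrix, in effect a signal proportional to reads (columns summed to between 97.6% and 105% of the nominal CPM total, and 100% of values were whole reads within 0.01 read), and a TPM matrix. The submitters' processing notes name fastp, HISAT2, StringTie and mm10, without versions or roles, and the strand setting of the counting is not stated in them. The study left out genes under 0.5 CPM.

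The 14106 genes that reached 0.5 CPM in 2 or more libraries were fitted on log2(CPM + 1) in limma 3.58.1 (R 4.3.3; abundance trend, two-sided, Benjamini-Hochberg over all tested genes, threshold 0.05); fold changes on this scale understate low genes. An exact permutation test of 1 gene cannot go below p = 0.333 here. Alternatives were a pseudocount of 0.25, other filters, TPM, edgeR 4.0.16 and DESeq2 1.42.0 on recovered reads, a replicate block and leaving out each library. Gene positions came from GENCODE M21 (GRCm38, the mm10 assembly). Scripts were tested on simulated data.

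The 8 genes and all lists were chosen with earlier results of these data known. The genes named were the 8, 24 fixed list genes, the called genes with the largest changes in each list (up to 3 per direction), Mrgpr paralogs with reads and the nearest profiles (5 each for Fcer1a and Kit). Cell type markers, chromosomal neighbours and promoter motifs lay outside this rule and were chosen after values had been seen.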

Additional observations from a re-analysis of the deposited data

How the results depend on the processing

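Most calls were lost without Ctrl 1 or Ctrl 2, where the spread within groups comes from the WC1 libraries alone. The fold changes of called genes such as Cpa3 and Il33 moved little. That of Cpa3 was -3.29 without Ctrl 1 and -3.23 without Ctrl 2, compared to -3.26. That of Il33 was -1.12 and -1.24, compared to -1.18. With 1 library left out, its group is represented by the other, assumed to vary like the other group. Genes called higher then ranged from 2 to 2424 and lower from 4 to 2748, pathway list genes called from 0 to 10 higher and from 0 to 38 lower, all lowest without Ctrl 1 or Ctrl 2. The median log2 fold change of the 8 genes ranged from -2.01 to -1.77. Over all genes, limma called 1443 higher and 1088 lower (57.0% higher). In the TPM matrix it called 2054 and 583 (77.9% higher), and the median of all genes shifted upwards by 0.12 (log2). Without a filter it called 788 and 532, among more genes tested, and 10 pathway list genes lower, compared to 16. DESeq2 called 1736 genes lower, and 8 pathway list genes higher and 28 lower, compared to 5 and 16. The median of the 8 genes was -2.40 with the smaller pseudocount, -2.75 in edgeR and -2.76 in DESeq2, compared to -1.84, since a pseudocount of 1 shrinks low genes.

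The labels number libraries 1 and 2 in both groups without saying that equal numbers pair mice. Over 14106 genes, the library 1 to 2 differences of the groups had a correlation of r = 0.19, and 2 pairs are too few to show that numbers pair libraries. In a fit with a replicate block, 27 pathway list genes were called lower, compared to 16, Mitf and Spi1 among them (limma adjusted p = 0.026 and 0.049), and 1769 and 1497 genes over all.

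Of 88 recomputed fold changes of the 8 genes, 1 changed sign, that of Gata2 without Ctrl 1 (range with a library left out -0.030 to 0.34). Of 405 values of the other named genes, 54 lost a call, 44 of them with a library left out, and 15 gained one. The genes whose sign changed had no call over all 4 libraries. They were Csf2rb (0.023), Maoa (0.0014) and Hnmt (0.055) in the TPM matrix and, with a library left out, Syk (-0.39 to 0.094), Lat2 (-0.79 to 0.0049), Hnmt (-0.17 to 0.0085) and Mrgprf (-0.032 to 0.22, and -0.018 without WC1 2). The causes were not tested. At these depths 3 reads are up to 0.0492 CPM, so differences among genes listed near 0 were not detectable.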
